A study of Mus musculus with 24 samples.

Results

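Shared-late regions were defined as stretches of open chromatin that carried a peak in both pyramidal neuron classes at both late ages (P21 and P48) and no peak at any of the 4 earlier ages in either class. Peaks of 12 lists on chromosomes 1 to 19, X and Y were merged wherever they overlapped by at least 1 bp, and 614 of the 85867 merged regions (0.715%) met this rule. Because the regions were chosen by presence of a peak in these lists, their presence is a description and carries no test.

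ATAC-seq marks accessible DNA, because a transposase can place its adapters there. The classes were the Cux2 callosal projection neurons (Cux2 CPNs), upper-layer cells whose axons join the hemispheres, and the Tle4 corticothalamic projection neurons (Tle4 CThPNs), deep-layer cells that project to the thalamus. Cells were tdTomato-positive and sorted from somatosensory and motor cortex of mice labelled C57BL/6, kept on a mixed C57BL/6J background, that carried the Ai14 reporter with Cux2-CreERT2 or with Tle4-2A-CreERT2, after the dams of both lines had received 4-hydroxytamoxifen before birth. The animals came from males homozygous for both alleles crossed to wild-type C57BL/6J females. Each class was sampled at E18.5, P1, P3 and P7 (early, 8 lists) and at P21 and P48 (late, 4 lists), with 2 libraries per class and age, each pooled from several animals of both sexes. The Cux2 driver also marks some interneurons, so it is not a pure model of callosal cells. Both libraries of a class and age had been combined into 1 peak list, so replicate values were not known. The methods give 1 approximate target depth for all ATAC-seq libraries, the lists do not give the depth each library reached, and 1 list per class and age was the unit throughout.

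Regions that are open only in mature neurons are usually read as distal regulatory elements, such as enhancers, which act on genes that can lie far along the chromosome. The interval between P7 and P21 contains eye opening and weaning, and in cortex it is known for rapid synapse formation and maturation of firing properties. Among the factors that open and bind such elements are AP-1 dimers of the FOS and JUN families, several of which are induced by neuronal activity. Their binding letters are TGANTCA, in which N is any base and which reads the same on both strands apart from N. E-boxes such as CAGATG are bound by basic helix-loop-helix factors of the NEUROD and NEUROG families.

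The sequences below show what the regions of highest signal looked like at their centre. Each is the plus strand of build NCBIM37, 100 bases each side of the mean summit, and capitals mark AP-1 (TGANTCA) or E-box (CAGATG, either strand) matches. These are the 4 regions with the highest mean rank over the 4 late lists:
chr10:11043436-11043636 (region of rank 1, intergenic near Epm2a): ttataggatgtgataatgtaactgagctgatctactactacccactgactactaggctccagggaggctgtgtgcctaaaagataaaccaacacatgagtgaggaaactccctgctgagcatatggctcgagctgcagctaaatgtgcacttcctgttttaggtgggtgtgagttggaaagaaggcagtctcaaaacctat
chr6:30858080-30858280 (region of rank 2, exonic in Tsga13): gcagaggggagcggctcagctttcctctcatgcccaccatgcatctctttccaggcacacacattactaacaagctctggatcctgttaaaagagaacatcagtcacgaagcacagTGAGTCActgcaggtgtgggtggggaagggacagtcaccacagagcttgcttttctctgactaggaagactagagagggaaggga
chr5:5648933-5649133 (region of rank 3, intronic in A330021E22Rik): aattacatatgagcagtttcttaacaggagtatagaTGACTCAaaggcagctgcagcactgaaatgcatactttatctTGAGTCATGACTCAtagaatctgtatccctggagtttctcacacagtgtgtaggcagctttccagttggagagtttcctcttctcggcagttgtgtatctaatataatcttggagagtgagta
chr19:55319563-55319763 (region of rank 4, intergenic near Gucy2g): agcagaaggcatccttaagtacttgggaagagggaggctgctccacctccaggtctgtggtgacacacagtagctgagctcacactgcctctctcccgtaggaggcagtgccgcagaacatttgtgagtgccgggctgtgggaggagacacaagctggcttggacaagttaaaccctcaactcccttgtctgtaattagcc

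The third of these carried 3 AP-1 matches, the nearest 12 bp from its centre. The second carried 1, 19 bp from its centre, and neither the first nor the fourth carried any. Below are the 2 promoter regions of highest rank, shown because promoters were rare among the shared-late regions:
chr12:60329460-60329660 (promoter of AC147101.1): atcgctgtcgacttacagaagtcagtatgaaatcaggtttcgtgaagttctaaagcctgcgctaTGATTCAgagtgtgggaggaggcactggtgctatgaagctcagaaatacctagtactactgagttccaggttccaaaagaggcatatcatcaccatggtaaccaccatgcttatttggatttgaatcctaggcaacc
chr6:70356386-70356586 (promoter of Igkv6-15): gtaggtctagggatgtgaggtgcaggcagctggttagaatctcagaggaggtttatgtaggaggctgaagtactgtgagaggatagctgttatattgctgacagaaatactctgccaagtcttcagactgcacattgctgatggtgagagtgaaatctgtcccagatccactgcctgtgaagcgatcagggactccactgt

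Below are the 4 regions of highest rank in or nearest to a gene of the synaptic, receptor and channel lists, shown as examples of regions placed by position at neuronal genes:
chr5:15506796-15506996 (intron of Cacna2d1): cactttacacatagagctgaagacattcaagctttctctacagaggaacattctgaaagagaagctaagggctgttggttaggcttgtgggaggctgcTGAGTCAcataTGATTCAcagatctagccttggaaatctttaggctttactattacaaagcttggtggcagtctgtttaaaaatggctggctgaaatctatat
chr6:110742787-110742987 (intron of Grm7): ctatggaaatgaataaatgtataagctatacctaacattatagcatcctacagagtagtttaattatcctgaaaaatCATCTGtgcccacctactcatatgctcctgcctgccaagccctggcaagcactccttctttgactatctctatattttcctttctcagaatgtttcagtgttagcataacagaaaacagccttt
chr1:156663479-156663679 (intergenic, nearest gene Cacna1e): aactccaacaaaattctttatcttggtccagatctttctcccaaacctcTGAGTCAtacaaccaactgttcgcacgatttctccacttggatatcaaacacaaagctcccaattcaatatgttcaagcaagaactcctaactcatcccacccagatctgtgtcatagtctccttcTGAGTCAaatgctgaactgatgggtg
chr1:194192279-194192479 (intron of Kcnh1): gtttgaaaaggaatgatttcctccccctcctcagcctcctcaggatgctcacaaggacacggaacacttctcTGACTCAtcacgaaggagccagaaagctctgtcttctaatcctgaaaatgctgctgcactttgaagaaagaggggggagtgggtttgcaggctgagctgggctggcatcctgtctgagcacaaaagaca

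The Cacna2d1 region carried 2 AP-1 matches, the nearer only 1 bp from its centre, and the Cacna1e region carried 2. The Kcnh1 region carried 1, and the Grm7 region had an E-box but no AP-1 match.

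The shared-late regions lay mostly away from gene starts, as did the regions open late in Cux2 CPNs only, and unlike regions that were also open early. Of the 614, 270 (44.0%) lay in introns, 256 (41.7%) between genes, 51 (8.31%) in exons away from a promoter, and 37 (6.03%, 95% Wilson interval 4.40 to 8.20) within 1 kb of an annotated transcription start site (TSS). The share in promoters was 16.6% over all merged regions, 5.41% in the 12362 regions open late in Cux2 CPNs only, 33.4% in the 2621 shared-early regions (a peak in 2 or more of the early lists per class, none late), and 64.6% in the 4350 regions that had a peak in all 4 late lists and also an early one. The last of these are called late regions with an early peak below. Wilson intervals here cover counting error over regions only.

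The median distance of the shared-late regions from the nearest TSS was 22457 bp, against 138 bp for the late regions with an early peak and 26292 bp for the Cux2-only late regions. In 445 regions (72.5%) it exceeded 10000 bp, and in 87 (14.2%) it exceeded 100000 bp. Their median GC content was 44.9% (quartiles 41.5 and 48.6), close to 45.2% over all merged regions and below 54.0% in the late regions with an early peak. The ratio of observed to expected CpG dinucleotides, which is high in CpG islands, had a median of 0.190, against 0.614 in the late regions with an early peak. Median width was 835 bp, against 658 bp over all merged regions. In placement and base composition the shared-late regions thus lay near the Cux2-only late regions, whose median CpG ratio was 0.188.

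Summits of the 4 late lists lay close together in most regions. The 4 summits of a shared-late region spanned a median of 54.0 bp, the same as in the late regions with an early peak. The nearest early peak lay a median of 13287 bp away. In 23 regions (3.75%) it lay within 1000 bp, and the closest was 92 bp away. Windows of the regions were almost wholly unique in the genome at the 50-base read length. All 50-base words were unique in 600 of 614 windows (97.7%), against 96.1% of the late regions with an early peak.

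Shared-late regions were spread over the genome, with a median gap of 2395614 bp between neighbours on a chromosome. Only 13 neighbouring pairs lay within 50000 bp of each other. The closest pair, 6394 bp apart, lay nearest to Ccdc109b, and the next, 8198 bp apart, lay within Kcnh1. Chromosome 10 held 55 (8.96%, interval 6.95 to 11.5) and 5.58% of all merged regions, while chromosome 7 held 15 (2.44%, interval 1.49 to 3.99) and 4.96% of all. Chromosome X held 3 (0.489%) and 2.51% of all merged regions.

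Because the rule used presence in each late list, the signal of the members is described without a test. The authors' fold enrichment was turned into a percentile within each list, so that 100 is the highest peak of that list. Median percentiles were 83.5 in Cux2 P21, 83.4 in Cux2 P48, 41.3 in Tle4 P21 and 51.5 in Tle4 P48. The regions thus ranked high among the peaks of both Cux2 lists and near the middle of both Tle4 lists. Median fold enrichments were 12.8, 12.3, 10.3 and 9.46 in the same order. The Tle4 P21 list was the shortest of the 12, with 6538 peaks, and the Cux2 P48 list the longest, with 45644, so percentiles are not on the same footing across lists. The late regions with an early peak had median percentiles of 80.2, 84.4, 57.3 and 63.2 in the same lists. In Tle4 P21 only 12 shared-late regions (1.95%) were above percentile 90, against 14.4% of the late regions with an early peak.

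**Figure D1:**
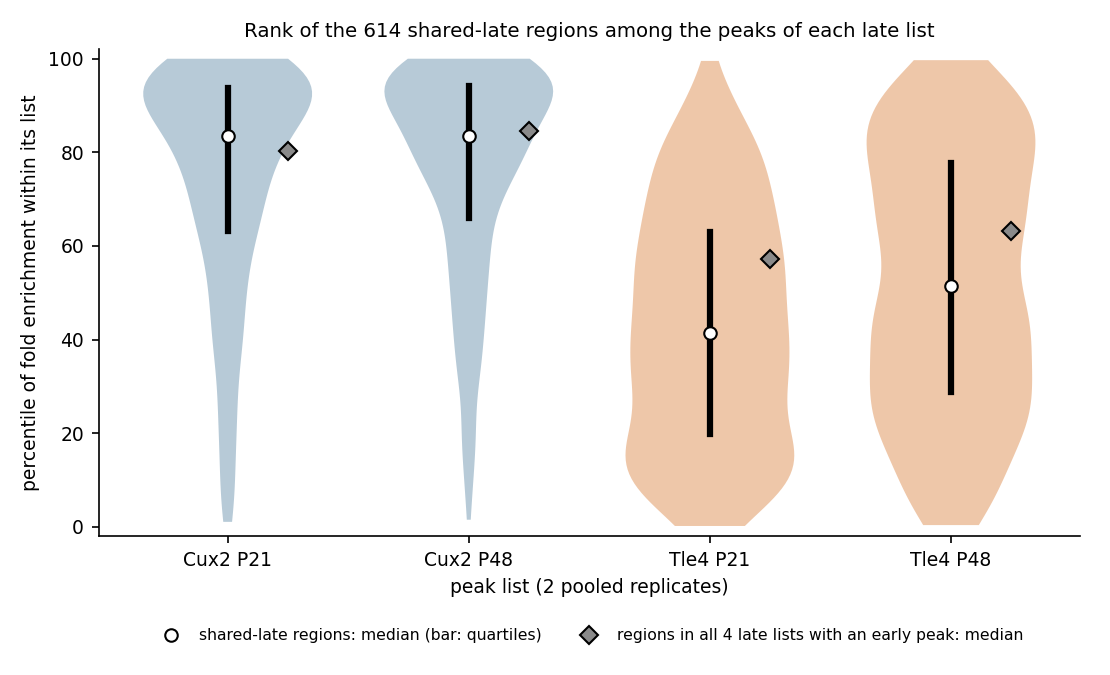
Percentile of fold enrichment (y axis, 0 to 100 within each list) of the 614 shared-late regions in the 4 late peak lists (x axis). Violins show the distribution, circles the median, bars the quartiles and grey diamonds the median of the late regions with an early peak. Medians are above 80 in both Cux2 lists and at 41.3 and 51.5 in the Tle4 lists.

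Ranks in a class were alike at P21 and P48. Across the 614 regions Spearman's rho between the percentiles was 0.726 for the Cux2 pair of ages and 0.658 for the Tle4 pair, and 0.417 to 0.454 for the 4 pairs of lists that crossed classes. The points share base composition and the pooled libraries behind each list, and regions are not independent replicates. From P21 to P48 the percentile was higher in 325 of 614 regions (52.9%) in Cux2 CPNs and in 417 (67.9%) in Tle4 CThPNs. Among late regions with an early peak these shares were 58.3% and 60.3%.

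The region of highest mean rank (99.5) was intergenic, chr10:11043232-11043866, 19666 bp from the TSS of Epm2a, which encodes the glycogen phosphatase laforin. Its fold enrichment was 19.4 in Cux2 P21, 22.0 in Cux2 P48, 20.2 in Tle4 P21 and 16.8 in Tle4 P48. The second lay in an exon of Tsga13 at chr6:30857891-30858500, with 20.8, 20.4, 16.7 and 17.5 in the same order. The third lay in an intron of A330021E22Rik at chr5:5648705-5649495, with 21.9, 19.5, 16.1 and 16.1. The fourth lay 3937 bp from the TSS of Gucy2g, which encodes a guanylyl cyclase, at chr19:55319219-55320130, with 19.8, 17.8, 15.6 and 13.7. In the last 3 of these both Cux2 values exceeded both Tle4 values, and in the first the Tle4 P21 value exceeded that of Cux2 P21.

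The other 8 of the top 12 had mean ranks from 93.7 to 96.8. They were intronic in Ptpn9, a tyrosine phosphatase, and in Slit3, a secreted axon guidance ligand, exonic in Ccdc126, and at the promoter of AC147101.1. The remaining 4 were intergenic, with Lmo7, Scel, Dennd2a and Gm12824 as nearest protein-coding genes. At the other end, the 3 regions of lowest mean rank had ranks of 5.93, 1.99 and 1.05, and lay in an intron of Kctd1, in an exon of Gm13564 and between genes near Gm7488. The lowest had fold enrichments of 5.70, 5.01, 6.53 and 5.37 in the 4 late lists.

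Promoter regions were few. Of the 37, 21 lay at a TSS of a protein-coding gene and 16 at starts of other gene types only. Of the 21, 15 were more than 1 kb inside the gene from its outermost TSS. For 4 of these 15 genes (Ufd1l, Pdxdc1, Acin1 and Prrt1, picked out after their values were seen) the outermost start had a peak in 6 to 8 early lists, so the outermost start was open at ages when the internal one had no peak. For the other 11, Sgms1 and C030046E11Rik among them, the outermost start had a peak in 0 or 1 early lists. When only starts of protein-coding transcripts were counted, the promoter share fell to 1.30%. The 2 protein-coding promoters of highest rank belonged to Sgms1, a sphingomyelin synthase (chr19:32284709-32285597), with fold enrichments of 14.9, 18.55, 13.3 and 11.4 in the 4 late lists, and to C030046E11Rik (chr19:29670729-29671449), with 14.1, 13.9, 13.5 and 12.5. At Sgms1 the region lay 178724 bp inside the outermost start, and at C030046E11Rik 73246 bp inside.

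Promoters of the serine/threonine kinases Slk and Csnk1e and of the zinc finger homeobox gene Zhx1 were also among the 37. At Csnk1e the region held the outermost start, with fold enrichments of 14.2, 13.4, 10.4 and 9.91. A further 4 promoter regions, singled out after their values were seen, lay at segments of antigen receptor genes, which only lymphocytes rearrange. Igkv6-15 had fold enrichments of 23.7, 23.3, 14.04 and 10.7 and the second highest mean rank of the promoter regions (90.2). Igkv6-13 had 11.2, 11.9, 10.7 and 10.6. In the windows of Igkv6-15 and Igkv6-13, 87.7% and 88.1% of the 50-base words were unique. Both were among the 5 of 614 windows below 90%, so their reads are placed less surely than those of most regions. The other two lay at annotated J segments 87668 and 57891 bp from the TSS of Dad1.

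Of 23 motifs searched, AP-1 differed most in percentage points between the shared-late regions and all merged regions. TGANTCA was searched on both strands within 150 bp of the mean summit. It was found in 267 of 614 shared-late regions (43.5%, interval 39.6 to 47.4), against 16.5% of all merged regions. The share was 34.2% (33.3 to 35.01) in Cux2-only late regions, 9.95% (9.10 to 10.9) in late regions with an early peak, 5.57% in regions of all 12 lists and 5.07% (4.30 to 5.98) in shared-early regions. The interval of the shared-late regions overlapped none of these. Away from promoters the shares were 43.5% in shared-late regions, 34.5% in Cux2-only late regions, 19.5% in late regions with an early peak and 6.07% in shared-early regions. Of the 614 regions, 199 held 1 match, 62 held 2 and 6 held 3 or more. The form with C or G in the middle, which AP-1 dimers bind best, was in 36.0%, and the form with A or T in 12.7%.

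**Figure D2:**
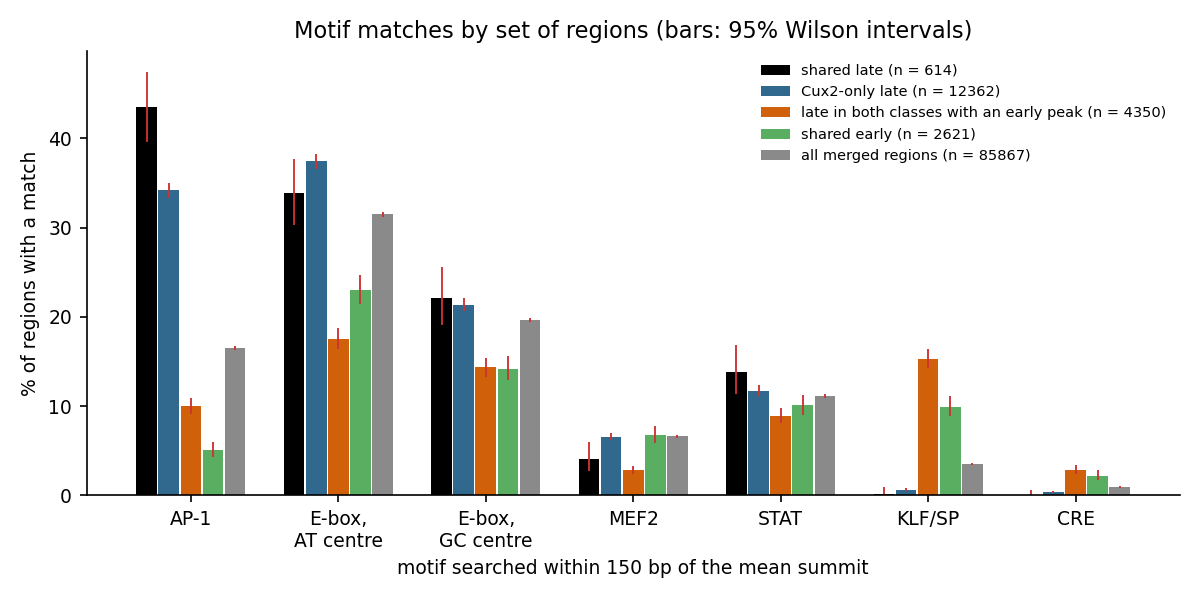
Share of regions with at least 1 motif match within 150 bp of the mean summit (y axis, percent) for 7 motifs (x axis) in 5 sets of regions. Bars are shares and thin lines 95% Wilson intervals. The AP-1 share is 43.5% in shared-late regions and 5.07% in shared-early regions, while the E-box shares of shared-late regions lie near those of all merged regions.

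The other motifs set the regions apart less, or in the opposite direction. CAGATG was in 33.9% of shared-late regions (30.2 to 37.7) and 31.5% of all merged regions, and the E-box CAGCTG in 22.1% (19.0 to 25.6) and 19.6%. TTCNNNGAA, the STAT letters, were in 13.8% (11.3 to 16.8) and 11.1%. MEF2 letters, bound by factors active in maturing neurons, were in 4.07% (2.77 to 5.94), against 6.63% of all merged regions. GGGGCGGGG, the KLF/SP letters of GC-rich promoters, were in 1 of 614 regions, against 3.53% of all. CRE (TGACGTCA), EGR (GCGNGGGCG), CTCF, RFX, NRF1, NR4A and NFI matches were found in 0 of 614 regions, which allows a share of up to 0.489%. Over all merged regions the shares were 0.936% for CRE, 1.63% for EGR and 2.15% for CTCF. In Cux2-only late regions, where promoters were also few, they were 0.356%, 0.267% and 0.2265%, below what a count of 0 allows. For EGR and CTCF, shares away from promoters were not computed. Over all merged regions, RFX (0.328%), NRF1 (0.311%), NR4A (0.431%) and NFI (0.0186%) lay below what a count of 0 allows. For these no difference was detectable. Away from promoters, CRE was in 0 of 577 shared-late regions (interval 0 to 0.661) and 0.454% of all merged regions. No difference was thus detectable for CRE there. KLF/SP letters were in 0 of the same 577 regions and in 0.876% of all merged regions away from promoters. CRE and AP-1 share their outer letters, but a CRE does not contain an AP-1 match. A match is a description of the sequence and not a measured binding site.

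AP-1 matches gathered at the summit. In the 267 regions that held one, the nearest lay a median of 31 bp from the mean summit, and in 175 (65.5%) it lay within 50 bp. Counted per base, there were 4.01 matches per 1000 regions within 20 bp of the summit and 0.407 at 120 to 140 bp. The same gathering was seen in Cux2-only late regions, with 2.88 and 0.455, and less steeply over all merged regions, with 1.06 and 0.356. In shared-early regions the values were 0.157 and 0.181, with no peak at the summit.

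**Figure D3:**
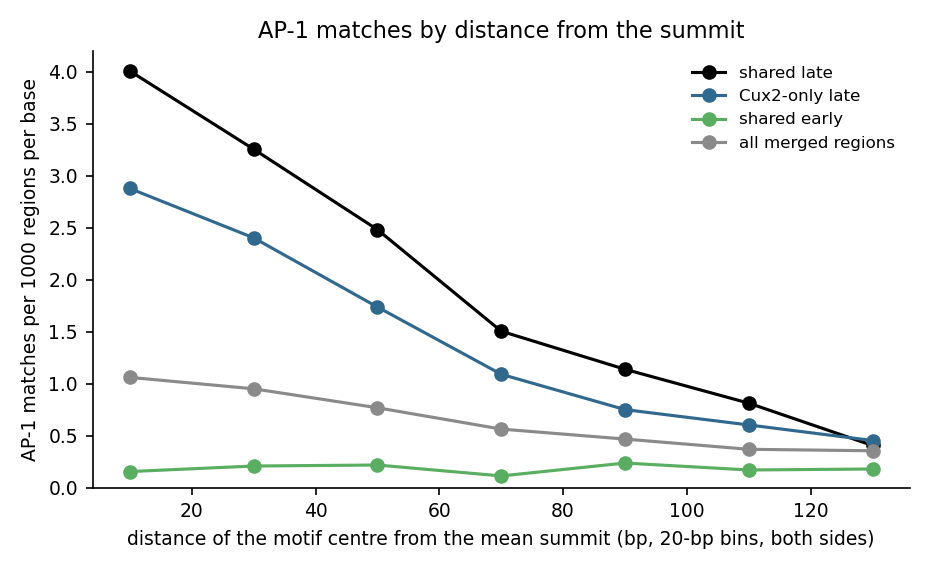
AP-1 matches per 1000 regions and base (y axis) by distance of the motif centre from the mean summit (x axis, bp, bins of 20 bp on both sides) in 4 sets of regions. Points are bins. Shared-late regions fall from 4.01 at the summit to 0.407 in the outermost bin and Cux2-only late regions from 2.88 to 0.455, and shared-early regions stay between 0.114 and 0.238.

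The AP-1 share changed in steps with the lists a region was in. Among non-promoter regions with no early peak it was 27.4% (26.6 to 28.2) with 1 late list, 34.3% (33.5 to 35.1) with 2, 39.6% (37.0 to 42.3) with 3 and 43.5% (39.5 to 47.6) with all 4. The last pair did not differ beyond their intervals. Among non-promoter regions in all 4 late lists it was 31.3% (24.6 to 38.8) with 1 early list and 11.6% (9.25 to 14.4) with all 8, with values from 16.8% to 27.5% between. With the shared-late regions ordered by mean rank and split into 4 groups of about equal size, the share was 35.7% in the lowest group, 35.3% in the next, then 54.9%, and 48.1% in the highest. It was 43.2% in promoters, 39.2% in exons, 44.8% in introns and 43.0% between genes, whose intervals overlapped.

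**Figure D4:**
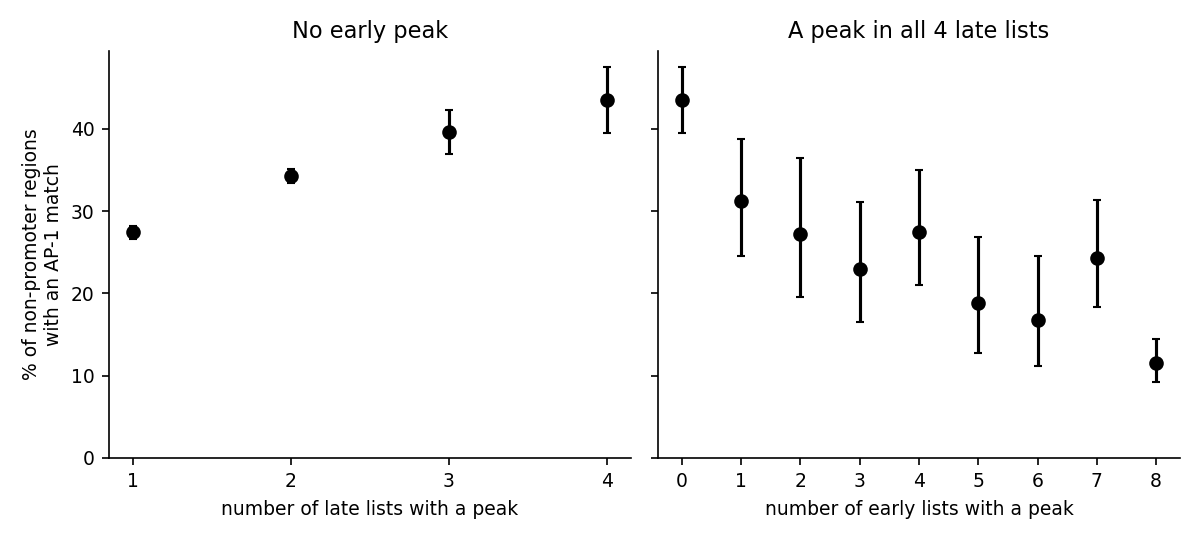
Share of non-promoter regions with an AP-1 match (y axis, percent) by the number of late lists with a peak, for regions with no early peak (left), and by the number of early lists with a peak, for regions in all 4 late lists (right). Points are shares and lines 95% Wilson intervals. The share rises from 27.4% to 43.5% on the left and is 11.6% with all 8 early lists on the right.

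The same letters were then counted in the other peaks of each list, leaving out promoters and the shared-late regions themselves, so that the rule's members had no part. In Cux2 CPNs the AP-1 share of peaks was 9.78% at E18.5, 9.64% at P1, 10.4% at P3, 10.0% at P7, 26.4% at P21 and 25.0% at P48. In Tle4 CThPNs it was 9.55%, 10.3%, 9.94%, 10.1%, 19.4% and 21.5%. The 8 early lists spanned less than a point, and all 4 late lists lay above all of them. The mean was 23.1% late and 9.98% early, a difference of 13.1 points. In an exact two-sided permutation test of the stage labels within classes, none of the other 224 arrangements gave as large a difference (p = 0.00444, the smallest that 225 arrangements allow). This test was chosen after the motif had been seen in the shared-late regions, and ages within a stage, not replicates, gave the spread. Lists of a stage also share regions, so they are not independent. Other regions with late peaks only stayed in, such as the Cux2-only late regions (34.5% with AP-1 away from promoters). The p-value thus describes these 12 lists and does not stand apart from the choice of the regions. The rise was 15.7 points in Cux2 CPNs and 10.5 in Tle4 CThPNs. The difference between these rises was 5.28 points, and 11.7 points when every list was cut to the length of the shortest. With the shared-late regions kept in, it was only 2.68 points. They made up 9.42% of the regions of Tle4 P21 and 1.65% of those of Cux2 P21, so leaving them out weighed more on the Tle4 lists. The difference between the classes was not tested. Median GC content in the same windows was 43.5% to 44.5% in early and 44.9% to 46.8% in late lists, and its part was not tested.

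**Figure D5:**
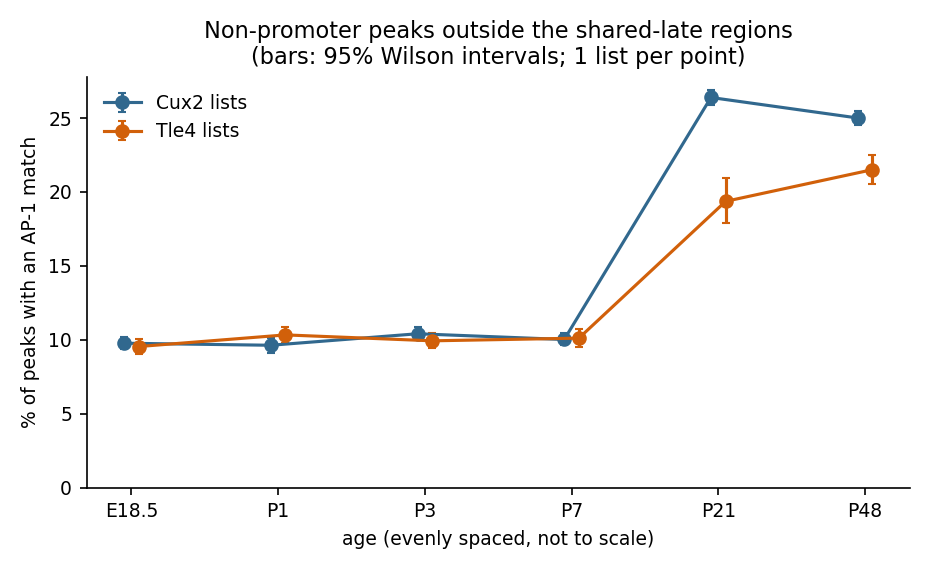
Share of non-promoter peaks outside the shared-late regions with an AP-1 match within 150 bp of the summit (y axis, percent) by age (x axis, evenly spaced) in the Cux2 and Tle4 lists. Points are single lists and lines 95% Wilson intervals. The 8 early lists lie between 9.55% and 10.4% and the 4 late lists between 19.4% and 26.4%.

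Each region was linked to the protein-coding gene of the nearest TSS if that lay within 100 kb. This linked 456 regions to 442 of 22225 genes (1.99%). No gene had more than 2 regions, and 14 had 2, among them Kcnh1, Kcnf1, Rgs7, Rapgef4, St7 and Mycbp2. Nearest distance does not show which gene a region acts on. In addition 329 regions lay within 322 protein-coding genes (1.45% of genes), which were long, with a median length of 110586 bp. Genes that held any other intronic merged region had a median of 64152 bp, and all protein-coding genes 15525 bp.

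Of the lists of neuronal genes, 5 had from 1 to 3 linked members and 3 had none. Genes of the receptor and postsynaptic list were linked in 2 of 27 cases (7.41%) and voltage-gated channel genes in 3 of 36 (8.33%). Over all protein-coding genes the linked share was 1.99%. The late cytoskeleton and axon list had 3 of 14 (21.4%), the immature neuron list 1 of 24 and the plasticity list 1 of 18. None of 24 presynaptic, 14 GABA receptor or 28 activity-regulated genes was linked. When a gene was counted if any of its starts lay within 100 kb, 5.64% of all protein-coding genes qualified, and Syn2, a vesicle protein, and Vgf, an activity-induced peptide, were the single additions of the presynaptic and activity lists. Gria2, Shank2 and Camk2a were added to the receptor and postsynaptic list in the same way, and Kcna1 and Cacna2d1 to the channel list. The immature neuron list gained as many as the receptor list, Apc2, Neurod2 and Nrp1, and stood at 4 of 24 (16.7%). These lists are small, and no test was run on their counts.

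In the channel genes, a region lay in an intron of Cacna2d1, an auxiliary calcium channel subunit (chr5:15506438-15507233), with fold enrichments of 13.9 in Cux2 P21, 11.9 in Cux2 P48, 12.6 in Tle4 P21 and 11.7 in Tle4 P48. Cacna1e, the pore of R-type calcium channels, had an intergenic region 90530 bp away (chr1:156663061-156663892), with 15.1, 13.1, 8.87 and 7.69, and one in an exon (chr1:156314424-156315015), with 8.08, 9.94, 11.7 and 9.02. The first was higher in Cux2 lists, as was the median over all shared-late regions, and the second was highest in Tle4 P21. Cacna1b, the pore of N-type channels, had an exonic region (chr2:24572941-24573676) with 9.04, 10.1, 9.86 and 10.4. These fold enrichments were nearly level, but the percentiles of this region were 38.7, 62.5, 31.2 and 68.7. Kcnh1, a potassium channel of the ether-a-go-go family, had a pair of intronic regions 8198 bp apart. The first along the chromosome (chr1:194182995-194183619) had 9.41, 10.2, 9.83 and 6.38, and the second (chr1:194191818-194192711) 10.3, 12.0, 10.7 and 7.88. Kcnd2, which carries the A-type potassium current in dendrites, held one (chr6:21501467-21502325) with 10.0, 11.0, 10.1 and 8.50. Kcnd2 and Cacna2d1 were taken for the region they hold, since their starts were not the nearest.

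In the synaptic genes, an intergenic region lay 68747 bp from Grin2a, the NMDA receptor subunit known to be added as cortex matures (chr16:10063420-10064156), with 12.2, 10.1, 8.51 and 7.72. It was higher in both Cux2 lists than in both Tle4 lists, as was the median over all shared-late regions. Dlg2, a postsynaptic scaffold, held an intronic region (chr7:99243588-99244637) with 8.78, 9.21, 8.30 and 6.79, and an early peak lay 769 bp from it. Grm7, a presynaptic glutamate receptor, held one (chr6:110742566-110743194) with 12.1, 7.93, 11.3 and 11.5, and Nlgn1, a postsynaptic adhesion protein, one (chr3:25346016-25347132) with 10.4, 10.3, 8.64 and 7.47. In fold enrichment Grm7 was thus lowest in Cux2 P48 and Nlgn1 in Tle4 P48. By percentile, Nlgn1 was lowest in Tle4 P21 (10.9, against 15.9 in Tle4 P48).

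Among cytoskeletal genes, a region 49277 bp from Nefl, the light neurofilament (chr14:68652256-68653064), had 13.4, 17.6, 12.2 and 10.4. A second one, 42580 bp from Nefm, the medium neurofilament of the same locus (chr14:68785301-68785829), had 8.43, 8.44, 10.7 and 11.3. The first was highest in Cux2 P48 and the second was higher in both Tle4 lists than in both Cux2 lists. Ank2, which encodes ankyrin-B, held an intronic one (chr3:126796296-126797324) with 13.3, 12.1, 7.95 and 9.18. The region near Stmn2, a tubulin-binding protein of growing neurites (chr3:8497950-8498540), had 12.4, 13.5, 13.1 and 10.2. The intronic one in Igf1r, the receptor of insulin-like growth factor (chr7:75242818-75243581), had 17.996, 18.9, 7.48 and 8.57, which was the widest gap between classes among these genes.

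Most linked genes had a promoter peak in at least 1 early list, as did most genes linked to Cux2-only late regions. Of the 442 genes, 292 (66.1%, interval 61.5 to 70.3) had a promoter peak in at least 1 early list, and 217 (49.1%) in an early list of each class. Only 26 (5.88%, interval 4.05 to 8.48) had promoter peaks in late lists alone, 20 of 410 (4.88%) when promoter regions were left out, and 124 (28.1%) had none in any list. Over all protein-coding genes the corresponding shares were 51.4%, 41.4%, 2.89% and 45.7%. Genes linked to Cux2-only late regions lay close to the linked genes, with 63.6%, 48.4%, 6.45% and 29.9%. Among genes linked to any non-promoter merged region they were 58.2%, 45.4%, 3.57% and 38.3%. In each of the 12 lists the share of genes with a promoter peak was higher among linked genes than among all protein-coding genes. The smallest share of linked genes was 24.2% (all genes 16.3%) in Tle4 P21 and the largest 59.7% (46.5%) in Cux2 E18.5. The difference was 8.90 points on average (SD 2.66 over 12 lists, range 5.39 to 13.2). Against genes linked to Cux2-only late regions it was 2.32 points on average (SD 1.42, range 0.332 to 6.00). Shared-late promoter regions have a peak in every late list by the rule. With them left out, the difference from all genes was 8.58 points on average (range 2.14 to 13.8). The share then lay below that of genes linked to Cux2-only late regions in Cux2 P21 (38.8% against 39.8%) and Tle4 P48 (23.9% against 24.0%). In the other lists it lay above.

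Promoter peaks of marker genes were checked in the late lists. Cux2 had a promoter peak in both late Cux2 lists and in neither late Tle4 list, and Tbr1, a factor of deep-layer neurons, the reverse. The Tle4 promoter had a peak in all 12 lists. Promoter peaks were found at 0 of 14 oligodendrocyte lineage markers in all 4 late lists, at 0 to 3 of 10 astrocyte markers, at 0 to 1 of 10 microglia markers, at 0 to 1 of 8 endothelial and mural markers and at 1 of 13 interneuron markers (Adarb2) in each. Over all protein-coding genes the share was 30.0% in Cux2 P21 and 42.3% in Cux2 P48. It was 16.3% in Tle4 P21 and 21.8% in Tle4 P48. The marker counts are small and were not tested. No gene of the 5 lists of other cell types had a linked region, and 1.99% of all protein-coding genes had one. By any start within 100 kb, 5.64% of all protein-coding genes qualified. Within 100 kb of any start lay 3 of the 8 endothelial and mural markers (Cldn5, Flt1 and Pdgfrb) and 1 of 10 microglia markers (Csf1r), with other genes nearer to the region in each case. In bulk sorted cells a region open in few cells cannot be told apart from one slightly open in many.

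Near misses showed how sharp the rule was. There were 174 regions in all 4 late lists with a peak in exactly 1 early list, and in 131 of these it was a P7 list (84 Cux2 and 47 Tle4). The 2 of highest rank were intergenic, near Spata3 and a U6 gene, and both had their early peak in Tle4 P7, with fold enrichments of 10.7 and 13.4 there. In the late lists the Spata3 region had 17.7, 18.7, 16.7 and 14.02, in the order above. A further 1381 regions had a peak in 3 late lists and no early one, and 1199 of these lacked only Tle4 P21. The 2 of highest rank lay in introns of Iqub and Cox10 and both lacked only that list. The Iqub region had fold enrichments of 16.4 in Cux2 P21, 18.2 in Cux2 P48 and 15.1 in Tle4 P48. AP-1 matches were in 31.03% (interval 24.6 to 38.3) of the regions with 1 early list and in 38.9% (36.3 to 41.5) of those with 3 late lists.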

How the data were processed

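Open chromatin was profiled by ATAC-seq in 24 libraries, 2 for each of 2 neuron classes at 6 ages. The authors aligned 50-base single-end reads to NCBI37 (mm9) with Bowtie2, removed duplicates with Picard and called peaks with MACS2 in the IDR framework, which keeps peaks that rank alike in both replicates. No shift for transposase binding is stated in the sources used here. Each deposited list holds, per peak, the ratio (fold enrichment over background) and the −log10 p and q values that the authors' caller gave, over both replicates pooled. Replicate values are therefore unknown, and the methods state only 1 approximate depth for all ATAC-seq libraries, not the depth of each. Thus the reproducibility of a peak, not only its accessibility, decided presence.

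Here 292934 of 292994 peaks, on chromosomes 1 to 19, X and Y, were merged. Regions were placed with GENCODE vM1 on NCBIM37, the same build (95458 transcript starts). Exonic regions were called before intronic ones, and promoters before both. Motifs were searched in the reference sequence. The mean summit averages the summit of the strongest peak per list. Gene lists were fixed as symbols, of which 4 of 256 were matched under an older name. Shares carry 95% Wilson intervals. The 12 regions and 10 promoter regions of highest mean percentile, the 3 lowest, genes of the lists with a linked region and the 2 highest of each kind of near miss were named, and 1 list gene is not reported here. The members, lists and motifs were chosen with earlier results of these data known. Alternatives were equal list length, a common −log10 p minimum, 100 bp of overlap, a 1000-bp margin to early peaks, other windows and links, and each list left out. Steps were tested on simulated data. Python 3.11.15, NumPy 2.4.6, pandas 2.3.3, SciPy 1.17.1 and matplotlib 3.10.9 were used.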

Additional observations from a re-analysis of the deposited data

How the results depend on the processing

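The number of shared-late regions followed the lists. It was 376 when every list was cut to the length of the shortest, and 495 under a common −log10 p minimum. With each of the 12 lists left out in turn it ranged from 615 to 1813. The highest value came without Tle4 P21, the shortest list. Without Cux2 P21, Cux2 P48 or Tle4 P48 it was 652, 636 and 737. Left-out lists moved the median GC content between 44.8% and 45.5% (45.5% without Tle4 P21), the promoter share between 5.70% and 6.51% and the AP-1 share between 39.8% and 44.4%. The promoter share was 9.12% within 2 kb of a TSS (19.5% of all merged regions) and 1.30% at starts of protein-coding transcripts. The AP-1 share was 35.7% in a window of 75 bp each side (11.5% of all merged regions) and 53.4% over the whole region (26.7% of all). It was 36.0% for the form with C or G in the middle and 43.8% in the 609 regions with 90% or more unique words, both added after seeing the data. The late-minus-early difference in AP-1 share outside the members was 16.7 points at equal list length and 11.9 for the C or G form. It was 12.6 to 13.6 with each list left out, and all these settings were chosen after seeing the data. Exact permutation p ran from 0.00444 to 0.0133, and the limits named for that test apply here too. Of 256 list genes, 11 were linked, and 28 when any start within 100 kb or a region in the gene body counted, also added later. Of 87 values under alternatives, 78 stayed within the error or the 1.5-fold limit of the reported value or on the same side of the threshold. No paired analysis was possible because the 2 replicates of each class and age were pooled before deposit. The depth of each library, not given in the files, limits every absence of a peak, which may mean that it was not detectable rather than closed.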
